A study of Arabidopsis thaliana with 14 samples.

Results

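Nucleosomal fragments of *FLC* were compared between cold-treated and warm-grown seedlings of *vrn1-4* FRI, in 7 of the 14 libraries of the study. The members are all libraries whose labels give the genotype *vrn1-4* FRI, 3 from warm-grown seedlings and 4 from seedlings given cold. The study mapped nucleosomes by targeted MNase-seq, in which nuclei are digested with micrococcal nuclease (MNase), DNA of nucleosome size is made into libraries, and fragments of chosen genes are pulled out with baits. The other 7 libraries are from WT FRI, with the same split of 3 warm and 4 cold, and serve here only for comparison. Both genotypes are in the Col-0 background and carry an active *FRIGIDA* allele introgressed from San Feliu-2, and *vrn1-4* FRI also carries the *vrn1-4* mutation, which was recovered after fast-neutron mutagenesis. It is therefore a single mutant allele. Whole seedlings of all groups were stratified for 3 days at 4 °C and grown for 10 days at 22 °C with 16 h of light (warm), and the 1W cold groups then spent 1 week at 5 °C, so the cold seedlings were also 1 week older and age and cold cannot be told apart. Each library came from 1.5 g of pooled seedlings. Whether the mutant lacks *VRN1* product could not be checked here, since the values are of *FLC* DNA fragments and measure no gene product.

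*FLC* encodes a MADS-box repressor of flowering, which an active *FRIGIDA* keeps expressed in the warm and which long cold silences through Polycomb proteins that nucleate at its 5′ end. VRN1 is a DNA-binding protein with B3 domains that is needed for lasting silencing of *FLC*. MNase cuts the DNA between nucleosomes and trims it up to the histone core. The midpoint of a fragment thus marks where a nucleosome sat, its length shows how much DNA was protected, and its ends show where the enzyme stopped. MNase cuts most readily at A/T-rich DNA.

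The *FLC* target region covers 9568 bp of chromosome 5 (3172382 to 3181949, TAIR10). *FLC* lies on the minus strand, with its transcription start site (TSS) at 3179448 and its transcript end at 3173382, and distances below are in bp from the TSS, positive into the gene. The deposited value of a fragment is its fraction of all *FLC* fragments of 100 to 150 bp in that library. Shares therefore sum to 100% in each library, and a gain at one place has to be met by losses at others. The number of sequenced fragments is not given. The WT FRI libraries held 14166 to 90960 distinct fragments in the warm and 46448 to 109647 in the cold. The *vrn1-4* FRI libraries held 63003 to 82621 distinct fragments in the warm and 86946 to 124173 in the cold. Over the 96 bins of 100 bp that held at least 0.01% of fragments on average, the log2 shares of cold replicate 4 had a mean Pearson's r of 0.964 with the other cold libraries and 0.980 with the warm ones. Cold replicate 1 was also slightly closer to the warm libraries (0.986) than to the cold ones (0.985), while cold replicates 2 and 3 were closer to the cold ones (0.983 against 0.977 and 0.977 against 0.965). Counts are also given without cold replicate 4, which was the farthest from its group. The labels call the libraries biological replicates, and no further detail of what separates them is given. Warm and cold libraries of the same number deviated together when replicates 1 to 3 were taken alone (r = 0.41, 0.52 and 0.35 over the bins), but not in every pair when all 4 cold libraries were used (r = -0.23, 0.57 and 0.61), and the labels do not say what libraries of a number share. Calls from a fit with the number as a replicate block, over replicates 1 to 3, are therefore given beside those of the fit over all libraries, with the calls of the same 6 libraries without the block.

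The distribution of nucleosomes along *FLC* was similar in the warm and in the cold. The differences that could be seen went towards lower shares in exon 1 and in the block of exons 2 to 6 with the introns between them. Shares tended to be higher upstream, in intron 6 and in the first and last parts of intron 1, although single places in introns were lower. Of 10 parts of the locus, exon 1 held a smaller share of midpoints in every cold library than in any warm one, and the other 9 parts overlapped between the temperatures. Exon 1, which holds the start codon and lies under the +1 and +2 nucleosomes, contained 8.58%, 8.25% and 8.71% of *FLC* midpoints in warm replicates 1 to 3. It contained 6.82%, 6.52%, 5.20% and 7.75% in cold replicates 1 to 4. Cold replicate 3 was the lowest and cold replicate 4 the nearest to the warm range. The means were 8.51 ± 0.238% (SD, n = 3) and 6.57 ± 1.05% (SD, n = 4), 0.772-fold, and the difference of -1.94 percentage points did not pass adjustment over the 10 parts (exact permutation test, p = 0.0571, adjusted p = 0.343). Exon 1 was the 1 part of 10 (10%) without overlap. With each distinct fragment counted once, which takes away the weight of frequent fragments, its difference was -0.741 points. In WT FRI exon 1 also held less in the cold mean, by -1.34 points (exact permutation test, p = 0.143). The difference between the genotypes was -0.597 points (permutation of genotype labels within each temperature, p = 0.713).

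The block of exons 2 to 6 with their short introns had the next largest difference, also towards lower shares in the cold. It held 16.1%, 16.9% and 17.1% in the warm and 16.2%, 15.7%, 14.5% and 15.8% in the cold, a difference of -1.11 points (exact permutation test, p = 0.0857, adjusted p = 0.343). Means were higher in the cold by 0.64 points in the first of 3 equal parts of intron 1, by 0.62 points in the last of them, by 0.64 points in intron 6, by 0.54 points in the first 1000 bp upstream of the TSS and by 0.72 points further upstream (exact permutation tests, p = 0.114 to 0.371). With 1 library left out these 5 differences ranged from 0.196 to 1.09 points. The middle part of intron 1, exon 7 and the 3′ flank differed by 0.03, 0.02 and -0.19 points. None of the 10 parts passed an adjusted p of 0.05.

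**Figure D1:**
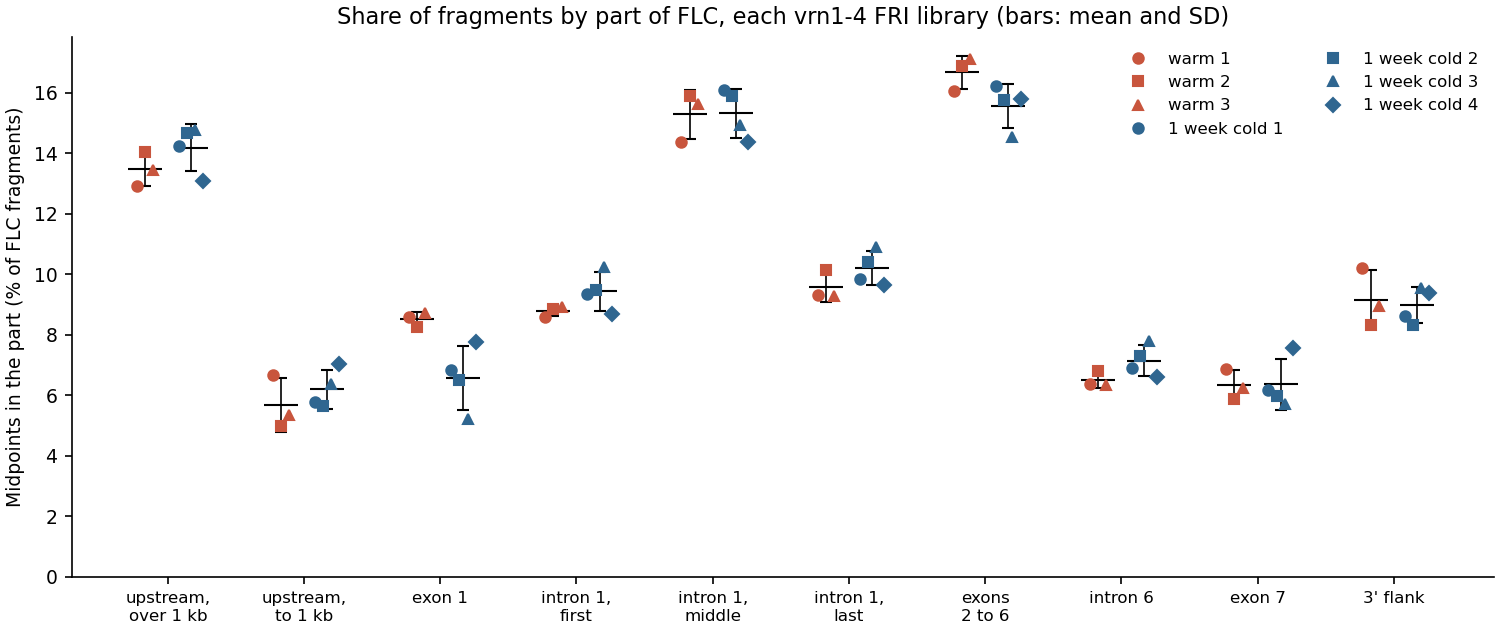
Share of *FLC* fragment midpoints (%) in each of the 10 parts of the locus, one point per *vrn1-4* FRI library with its replicate number as the symbol, warm in red and 1W cold in blue, with the mean and SD of each group as black bars. Exon 1 is the part in which the 4 cold libraries, at 5.20% to 7.75%, all lie below the 3 warm libraries, at 8.25% to 8.71%.

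Per 100-bp bin, limma on log2(share + 0.0001), with the share as a fraction, over all 14 libraries called 0 of 96 bins (0%) at an adjusted p of 0.05. At an unadjusted p under 0.05 there were 15 bins (15.6%), of which 11 (11.5%) were higher in the cold. The same test without cold replicate 4 called 9 bins (9.38%), of which 8 (8.33%) were higher. The replicate block called 30 bins (31.2%), and the same 6 libraries without it 17 (17.7%). The warm and cold libraries did not overlap in 14 bins (14.6%), higher in the cold in 9 (9.38%) and lower in 5 (5.21%). The extremes were -0.77 on the log2 scale at +167 in exon 1 and 0.75 at -1333 upstream, and the median over the 96 bins was 0.11. The log2 change had a Pearson's r of -0.61 with the log2 warm share of the bin, over bins that share the same libraries.

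The bins with the smallest p among those higher in the cold lay in intron 1 and upstream. The bin at +767 to +866 in intron 1 held 0.164%, 0.167% and 0.146% of midpoints in the warm and 0.194%, 0.218%, 0.262% and 0.225% in the cold. All cold libraries lay above all warm ones, and the log2 change was 0.47 (SE 0.148, limma adjusted p = 0.265). The bin at -1433 to -1334 upstream held 1.66%, 1.71% and 1.60% in the warm and 1.92%, 2.14%, 2.08% and 1.96% in the cold. Here too the groups did not overlap, with a log2 change of 0.29 (SE 0.101, limma adjusted p = 0.265). The bin at -1033 to -934 overlapped through cold replicate 4, which at 1.53% lay within the warm range of 1.32% to 1.60%, and its log2 change of 0.37 passed without that library (0.47, limma adjusted p = 0.0330).

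The 3 bins with the smallest p among those lower in the cold lay between the end of intron 1 and exon 5. The bin at +4267 to +4366, most of it in intron 4, held 2.91%, 3.24% and 3.24% in the warm and 2.67%, 2.66%, 2.46% and 2.62% in the cold, without overlap (log2 change -0.27, SE 0.104, limma adjusted p = 0.265). The bin at +3667 to +3766, at the end of intron 1, held 1.75%, 2.27% and 1.84% in the warm and 1.55%, 1.65%, 1.67% and 1.63% in the cold, also without overlap (log2 change -0.25, SE 0.105, limma adjusted p = 0.265). The next bin, at +3767 to +3866 across exon 2, overlapped through cold replicate 1 (log2 change -0.23, SE 0.0942, limma adjusted p = 0.265). None of these 6 bins passed the test over all libraries.

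**Figure D2:**
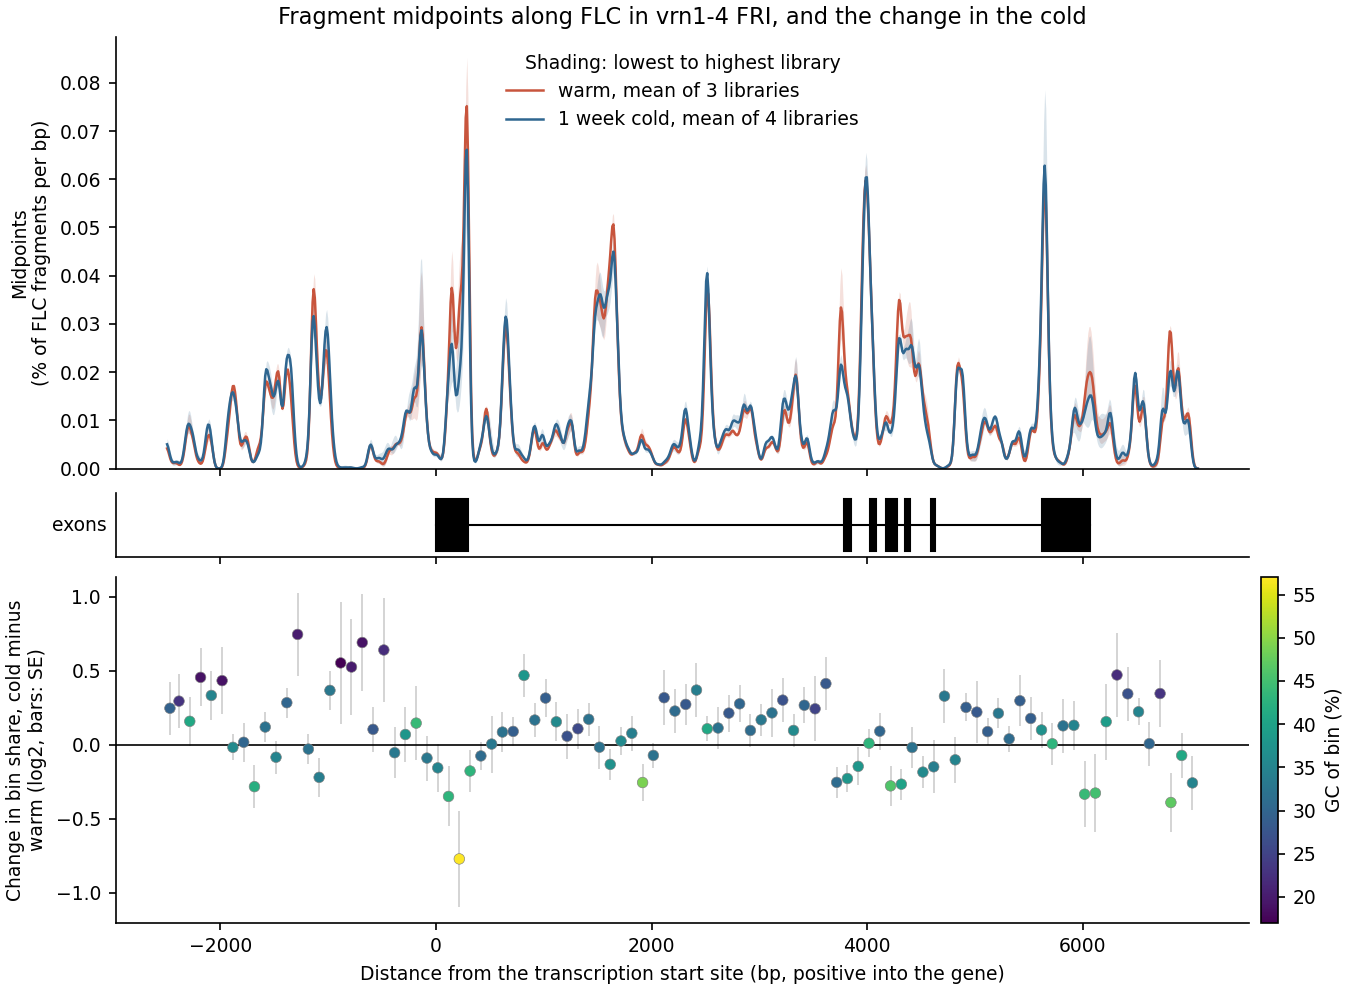
Upper panel, midpoints along *FLC* (% of *FLC* fragments per bp, smoothed with a Gaussian of 20 bp SD) as the mean of 3 warm and 4 cold *vrn1-4* FRI libraries, shaded from the lowest to the highest library. Middle panel, exons of *FLC*. Lower panel, change of each of the 96 bins in the cold (log2, with limma's SE), coloured by GC content. Peaks over exon 1 and at the intron 1 and exon 2 border are lower in the cold mean, and the dark, A/T-rich bins lie above 0.

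The changes of the bins were related to their base composition. Across the 96 bins the log2 change had a Pearson's r of -0.77 and a Spearman's rho of -0.68 with GC content. Bins are neighbours in the same 7 libraries and are not independent, so this is a description. All 27 bins of the lowest GC class (17% to 29% GC) were higher in the cold mean, with a median log2 change of 0.30, against 17 of 23, 13 of 23 and 9 of 23 in the classes of rising GC content, the last with a median of -0.14. The lowest class together held 9.93%, 11.2% and 11.1% of midpoints in the warm and 12.3%, 13.5%, 15.6% and 10.5% in the cold. Cold replicate 4 lay within the warm range and the other 3 cold libraries above it (exact permutation test, p = 0.171). In WT FRI this class held a mean of 16.0% in the warm and 18.7% in the cold, with groups that overlapped.

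The GC content of the fragments themselves was 38.3%, 37.7% and 37.9% in the warm and 37.3%, 36.9%, 36.5% and 37.9% in the cold. Cold replicates 1 to 3 lay below the warm libraries and replicate 4 among them, and the difference of -0.789 points did not pass (p = 0.114 by the exact permutation test). In WT FRI the difference was -0.631 points (exact permutation test, p = 0.171). The change of the bins in mean fragment length, in contrast, had an r of 0.08 with GC content. Exon 1 had 48.0% GC, exon 7 had 39.0%, and exons 2 to 6 together with their short introns had 37.9%. The parts of intron 1 had 30.4% to 34.4%. Exon 7 differed by only 0.02 points in share between the temperatures, unlike the other parts that hold exons. The exon and the GC patterns cannot be told apart here.

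Midpoints formed 54 peaks along the locus, called on the mean profile of all 14 libraries with a median spacing of 165 bp. The peak with the smallest p lay at +3759, at the border of intron 1 and exon 2. The share of midpoints within 50 bp of it was 2.06%, 3.05% and 2.39% in the warm and 1.78%, 1.85%, 1.69% and 1.90% in the cold. All cold libraries lay below all warm ones, and the cold libraries were closely grouped (2.50 ± 0.504%, SD, n = 3, against 1.80 ± 0.0925%, SD, n = 4). The log2 change was -0.45 (SE 0.126), and it did not pass adjustment over the 54 peaks (limma adjusted p = 0.166). It passed when warm replicate 1, the lowest of the warm libraries, was left out (-0.58, limma adjusted p = 0.0295), and when log2 shares were centred on their median in each library (-0.61, limma adjusted p = 0.0366). With each distinct fragment counted once it was -0.16 (limma adjusted p = 0.352). The same peak was called lower in WT FRI in the cold (log2 change -0.49, limma adjusted p = 0.0370), and the difference between the genotypes was 0.04 (limma adjusted p = 0.959).

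The midpoints of the nucleosome at this border were also more spread in the cold libraries. The SD of its midpoints within 50 bp was 23.2, 21.5 and 22.4 bp in the warm and 25.7, 25.1, 25.9 and 24.5 bp in the cold. Every cold library was above every warm one, by 2.93 bp on average (SE 0.924, limma adjusted p = 0.149). In WT FRI the spread of this peak was called wider in the cold, by 4.47 bp (limma adjusted p = 0.0124). The difference between the genotypes was -1.54 bp (limma adjusted p = 0.527). The neighbouring peak at +3541 in intron 1 had 21.7, 22.1 and 24.7 bp in the warm and 25.6, 26.6, 27.5 and 25.3 bp in the cold (difference 3.44 bp, SE 1.01, limma adjusted p = 0.149, and 0.0209 without warm replicate 3). The peak at -1887 upstream had an SD of 24.8 to 25.1 bp in the warm and 26.5 to 26.7 bp in the cold (difference 1.67 bp, SE 0.564, limma adjusted p = 0.149). Of the 54 peaks, 0 (0%) passed for spread at an adjusted p of 0.05 and 8 (14.8%) had an unadjusted p under 0.05, all of them wider in the cold. Leaving out cold replicate 4 gave 1 call (1.85%) and leaving out warm replicate 3 gave 2. Over replicates 1 to 3, 4 peaks (7.41%) passed with the replicate block and 4 without it. The 3 with the smallest p among narrower peaks (+1115, +6366 and -1570) had differences of -1.44, -2.44 and -0.65 bp (limma adjusted p = 0.484 to 0.653).

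Both of the 2 most frequent fragments within 50 bp of the peak at +3759 cross the border of intron 1 and exon 2. The fragment shown is the less frequent of them and the one whose warm and cold libraries did not overlap. It spans 142 bp from the last part of intron 1 into exon 2 (chr5:3175620-3175761, TAIR10.1, minus strand). Its sequence is shown on the sense strand, with the bases of exon 2 in capitals.
fragment 3175620 to 3175761: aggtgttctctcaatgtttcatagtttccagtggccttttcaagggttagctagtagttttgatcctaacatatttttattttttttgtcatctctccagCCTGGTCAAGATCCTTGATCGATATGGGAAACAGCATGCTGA
This fragment made up 0.0445%, 0.0712% and 0.0867% of *FLC* fragments in the warm and 0.0383%, 0.0385%, 0.0250% and 0.0381% in the cold. No cold library reached the lowest warm one, while the other of the 2 (3175575 to 3175719, 145 bp) overlapped between the temperatures. Both belong to a peak that was named for its lower share, so these values only describe that peak and no p-value is given for them.

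Other peaks with small p were spread over the locus. Shares were higher in the cold at -1366 upstream (1.67%, 1.76% and 1.65% in the warm, 1.99%, 2.30%, 2.23% and 2.02% in the cold, log2 change 0.33), at +6484 in the 3′ flank (log2 change 0.21) and at +2752 in intron 1 (log2 change 0.33), each without overlap and each with a limma adjusted p of 0.268. They were lower at +4300 in intron 4 (2.79%, 2.99% and 3.02% in the warm, 2.39%, 2.37%, 2.17% and 2.54% in the cold, log2 change -0.31, limma adjusted p = 0.268), again without overlap. In all, 0 of 54 peaks (0%) passed at an adjusted p of 0.05, 8 (14.8%) had an unadjusted p under 0.05, and the groups did not overlap at 8 (14.8%). Without cold replicate 4, 1 peak (1.85%) passed, higher in the cold. The replicate block called 14 peaks (25.9%), and the same 6 libraries without it 0 (0%).

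The nucleosomes that flank the TSS are the best studied of *FLC*, and Polycomb nucleates over the first nucleosomes downstream of the TSS. The +1 peak at +145 in exon 1 held 2.36%, 2.78% and 3.14% of midpoints in the warm and 2.24%, 2.38%, 1.91% and 1.71% in the cold. The groups overlapped by 1 library, cold replicate 2 (log2 change -0.42, SE 0.176, limma adjusted p = 0.268). The +2 peak at +284, at the end of exon 1, held 4.82%, 4.62% and 5.39% in the warm and 4.42%, 4.31%, 3.30% and 4.94% in the cold (log2 change -0.23, SE 0.144, limma adjusted p = 0.372). The -1 peak at -135 held 2.99%, 1.66% and 1.88% in the warm and 1.98%, 1.67%, 1.89% and 3.06% in the cold. Its highest values came from warm replicate 1 and cold replicate 4, and the log2 change was -0.01 (SE 0.221, limma adjusted p = 0.972).

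The +1 peak had the smallest p of all peaks for its centre. The mean midpoint of the fragments within 50 bp lay 147.0, 144.3 and 145.1 bp from the TSS in the warm and 137.3, 140.2, 139.6 and 144.4 bp in the cold. Cold replicates 1 to 3 were closer to the TSS than any warm library, while cold replicate 4 lay within the warm range. The mean difference was -5.09 bp (SE 1.55, limma adjusted p = 0.276 over the 54 peaks), and it passed without cold replicate 4 (-6.43 bp, limma adjusted p = 0.0134). It was -2.64 bp with each distinct fragment counted once (limma adjusted p = 0.298). In WT FRI the same measure changed by -10.3 bp (limma adjusted p = 4.29e-04), and the difference between the genotypes was 5.25 bp (SE 2.19, limma adjusted p = 0.409). The centres of the +2 and -1 peaks differed by 1.24 and -1.03 bp (limma adjusted p = 0.763 for each).

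At 6 of the 54 peaks (11.1%) the mean midpoint lay further along the gene's direction of transcription in every cold library than in any warm one, and at 3 (5.56%) it lay further against it. The 3 peaks with the smallest p in the first direction were +752 in intron 1 (739.2, 741.3 and 742.9 bp against 746.6, 745.9, 747.4 and 743.8 bp), -1014 upstream (difference 2.76 bp) and +4400 in intron 5 (difference 2.86 bp). At +2515 in intron 1 it lay closer to the TSS in every cold library (difference -3.47 bp), and at +6743 in the 3′ flank the groups overlapped (difference -4.99 bp). None of these 5 passed (limma adjusted p = 0.365 for each). The differences of the largest size, looked up after the values were seen, were -7.12 bp at -441 and -5.19 bp at -798, both upstream and both with groups that overlapped (limma adjusted p = 0.417 and 0.735). Without cold replicate 4 the difference at -441 was -12.0 bp (limma adjusted p = 0.0736). Of the 54 centres 0 (0%) passed, 1 (1.85%) without cold replicate 4, 6 (11.1%) had an unadjusted p under 0.05, and the groups did not overlap at 9 (16.7%). The replicate block called 17 centres (31.5%), and the same 6 libraries without it 3 (5.56%). In WT FRI 10 of the 54 centres passed (18.5%).

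Fragment ends were taken apart by side, as the lowest coordinate (left end) or the highest coordinate (right end) of a fragment. Since *FLC* is on the minus strand, the right end of a fragment downstream of the TSS faces the TSS. In fragments upstream of the TSS the left end faces it. Of 877 end positions with a mean share of at least 0.05% of fragments over the 14 libraries, 0 (0%) passed limma over the 14 libraries, and the count was also 0 without cold replicate 4. At an unadjusted p under 0.05 there were 82 (9.35%), 30 of them (3.42%) higher in the cold. A fit over the 7 *vrn1-4* FRI libraries alone called 53 ends (6.04%), 20 (2.28%) higher and 33 (3.76%) lower in the cold. The libraries did not overlap at 196 ends (22.3%), 89 (10.1%) higher and 107 (12.2%) lower. The replicate block called 244 ends (27.8%), and the same 6 libraries without it 185 (21.1%). The spread within WT FRI enters the 14-library fit and not the 7-library fit. WT FRI warm replicates 1 and 2 held the fewest distinct fragments of the 14 libraries, 27911 and 14166.

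The 53 ends were counted by element of the locus. Over all 877 ends tested, 2.28% were called higher and 3.76% lower in the 7-library fit. At the 145 tested ends in exons, 17 were called lower and 0 higher in the 7-library fit. At the 489 ends in introns, 9 were called higher and 9 lower. At the 182 ends upstream of the TSS, 9 were higher and 3 lower, and at the 61 ends of the 3′ flank, 2 were higher and 4 lower. The median log2 change, over all ends tested, was -0.16 in exons, 0.03 in introns, 0.05 upstream and -0.14 in the 3′ flank. Whether the classes differ was not tested.

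The 3 lower ends with the smallest p all lay close together at the border of intron 1 and exon 2. The right end at 3175761 (+3687) is the TSS-facing end of the 142-bp fragment shown above. It ended 0.325%, 0.507% and 0.433% of *FLC* fragments in the warm and 0.224%, 0.221%, 0.215% and 0.214% in the cold. The 4 cold libraries were closely grouped below the warm ones, and the log2 change was -0.89 (SE 0.210, limma adjusted p = 0.378 over 14 libraries and 0.0394 over 7). The left end at 3175606 (+3842), inside exon 2, had 0.121%, 0.231% and 0.186% in the warm and 0.0924%, 0.0890%, 0.0713% and 0.0762% in the cold (0.458-fold, SE 0.283 on the log2 scale, limma adjusted p = 0.493 over 14 libraries and 0.0421 over 7). The left end at 3175626 (+3822), also in exon 2, had 0.0815%, 0.124% and 0.0897% in the warm and 0.0492% to 0.0537% in 3 of the cold libraries, with 0.0465% in cold replicate 3 (log2 change -0.82, limma adjusted p = 0.493 over 14 libraries and 0.0424 over 7). The groups did not overlap at any of the 3, and in WT FRI the log2 changes of the same ends were -0.71, -1.03 and -1.03.

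The 3 higher ends with the smallest p were weaker ends. The left end at 3176097 (+3351, intron 1) had 0.0224%, 0.0202% and 0.0207% in the warm and 0.0466%, 0.0567%, 0.0408% and 0.0517% in the cold, 2.32-fold. All cold libraries lay well above the warm ones (log2 change 0.92, SE 0.263, limma adjusted p = 0.493 over 14 libraries and 0.0394 over 7). At such weak ends the 0.0001 added to the fraction makes the log2 change smaller than that of the fold. The left end at 3175720 (+3728, intron 1) was 1.96-fold higher and the right end at 3180864 (-1416, upstream) 1.93-fold higher in the cold, both without overlap (limma adjusted p = 0.504 over 14 libraries for each, and 0.0472 and 0.0421 over 7).

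**Figure D3:**
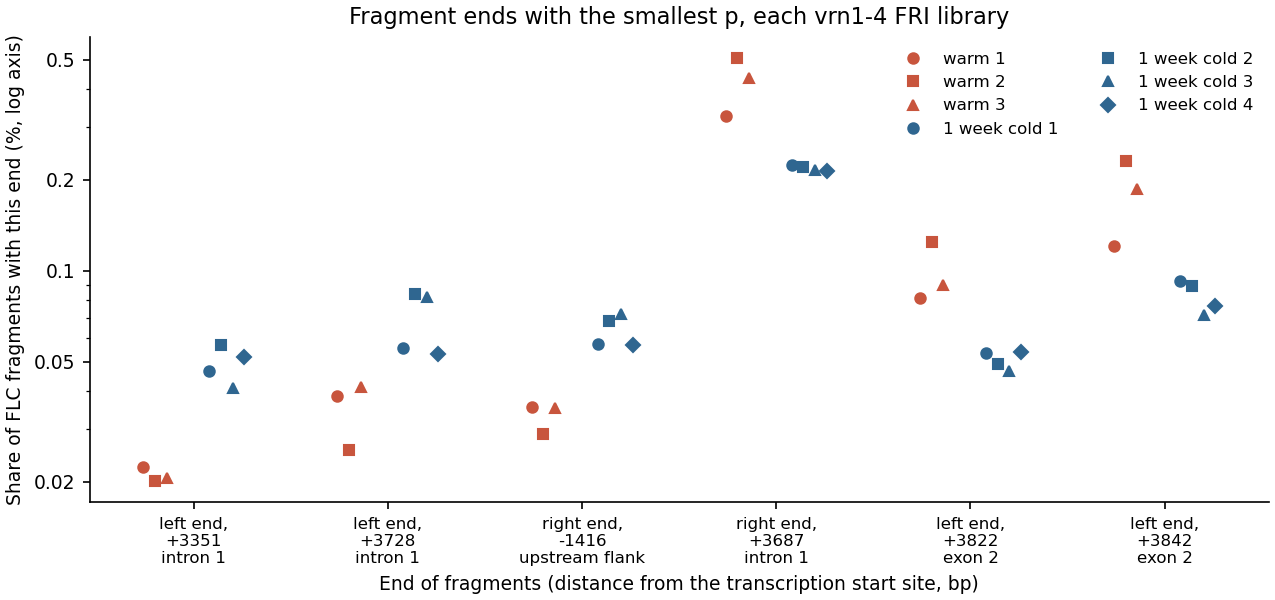
Share of *FLC* fragments that end at each of 6 positions (%, log axis), one point per *vrn1-4* FRI library, warm in red and 1W cold in blue. The 3 ends on the left are those with the smallest p among ends higher in the cold and the 3 on the right those among ends lower in the cold, and at each of them the warm and cold libraries do not overlap.

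The sequences of these 6 ends are shown because they differ by direction in their protected bases. Each is written 5′ to 3′ into the fragment, with the 12 bases outside it, then the fragment's own first 3 bases in capitals, then 10 more protected bases (TAIR10.1). The 3 ends higher in the cold are given first.
left end 3176097 (chr5:3176085-3176109, plus strand): gataaagtttagTGAtagcgctggc
left end 3175720 (chr5:3175708-3175732, plus strand): ctagctaaccctTGAaaaggccact
right end 3180864 (chr5:3180852-3180876, minus strand): tgggttaaatttAGAataaagatca
The 3 ends lower in the cold follow.
right end 3175761 (chr5:3175749-3175773, minus strand): atgtaaaaggtaAGGtgttctctca
left end 3175626 (chr5:3175614-3175638, plus strand): agatcatcagcaTGCtgtttcccat
left end 3175606 (chr5:3175594-3175618, plus strand): tttgtattaccaAGGctttaagatc
All 6 begin with A or T followed by G. The third protected base was A at the 3 ends that were higher in the cold, and G or C at the 3 that were lower.

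The same split was seen over all 877 ends, grouped by protected bases 2 and 3 counted from 1 at the end of the fragment. At the 279 ends with G or C at both bases the median log2 change was -0.21, and 27.6% were higher in the cold mean. In the 7-library fit 25 of them were called lower and 0 higher. At the 422 ends with G or C at base 2 and A or T at base 3 the median was 0.13, 62.8% were higher, and 14 were called higher and 3 lower. The 167 ends with A or T only at base 2, and so G or C at base 3, had a median of 0.05, with 5 called in each direction. Only the ends with G or C at both bases had a median below 0. The 9 ends with A or T at both bases were all higher in the cold mean, with a median of 0.49. This grouping was chosen after the values were seen, in the same libraries, and is a description.

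Summed over all fragments of a library, the base at the cut overlapped between the temperatures while the bases just inside it did not. The first protected base was A or T at 90.8%, 91.0% and 90.5% of ends in the warm and at 90.6%, 89.3%, 89.6% and 91.8% in the cold (exact permutation test, p = 0.514). At the second base the share of A or T was 29.6%, 30.3% and 29.1% in the warm and 31.5%, 33.1%, 33.4% and 32.7% in the cold, a difference of 3.00 points. At the third base it was 45.2%, 45.1% and 46.1% in the warm and 48.6%, 50.9%, 50.1% and 50.4% in the cold, a difference of 4.51 points. At both bases every cold library was above every warm one (exact permutation test, p = 0.0286 for each, the smallest this design allows, adjusted p = 0.143 over 20 positions). Cold replicate 4, which lay with the warm libraries in GC content and in the centre of the +1 peak, lay with the cold libraries here.

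Away from the cut the differences were smaller. Over the 10 bases outside and the 10 bases inside the fragment, A or T was more frequent without overlap at 8 positions (40%), which were bases 2, 3, 4 and 5 inside and bases -4, -5, -6 and -10 outside. Beside the 3.00 and 4.51 points of bases 2 and 3, the differences were 2.46 points at base 4, 0.873 points at base 5 and 0.400 to 1.55 points at the 4 outer positions. In WT FRI the third base was A or T at 53.5% to 57.2% of ends in the warm and at 59.5% to 60.7% in 3 cold libraries, while cold replicate 1 stood apart from these with 46.8%. Its mean change there was 1.41 points (exact permutation test, p = 0.8), and the difference between the genotypes was 3.11 points (permutation of genotype labels within each temperature, p = 0.613).

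By pairs of bases, 10 of the 16 combinations at protected bases 2 and 3 did not overlap between the temperatures (62.5%), 5 (31.2%) higher and 5 (31.2%) lower in the cold. The combination GA had the largest difference in points, with 12.2%, 12.7% and 12.7% of ends in the warm and 13.7%, 15.3%, 13.5% and 15.9% in the cold (14.6 ± 1.15%, SD, n = 4, against 12.5 ± 0.257%, SD, n = 3). GC, in contrast, was at 9.89%, 9.33% and 9.73% in the warm and at 8.25%, 7.35%, 7.69% and 7.26% in the cold, and GG at 14.2%, 14.3% and 14.1% against 13.3%, 12.1%, 12.5% and 12.3%. CG was at 3.87%, 3.60% and 3.55% in the warm and 2.78%, 2.42%, 2.55% and 2.77% in the cold. None of the 16 passed adjustment, since the smallest adjusted p they reached was 0.0914 (exact permutation tests, two-sided).

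**Figure D4:**
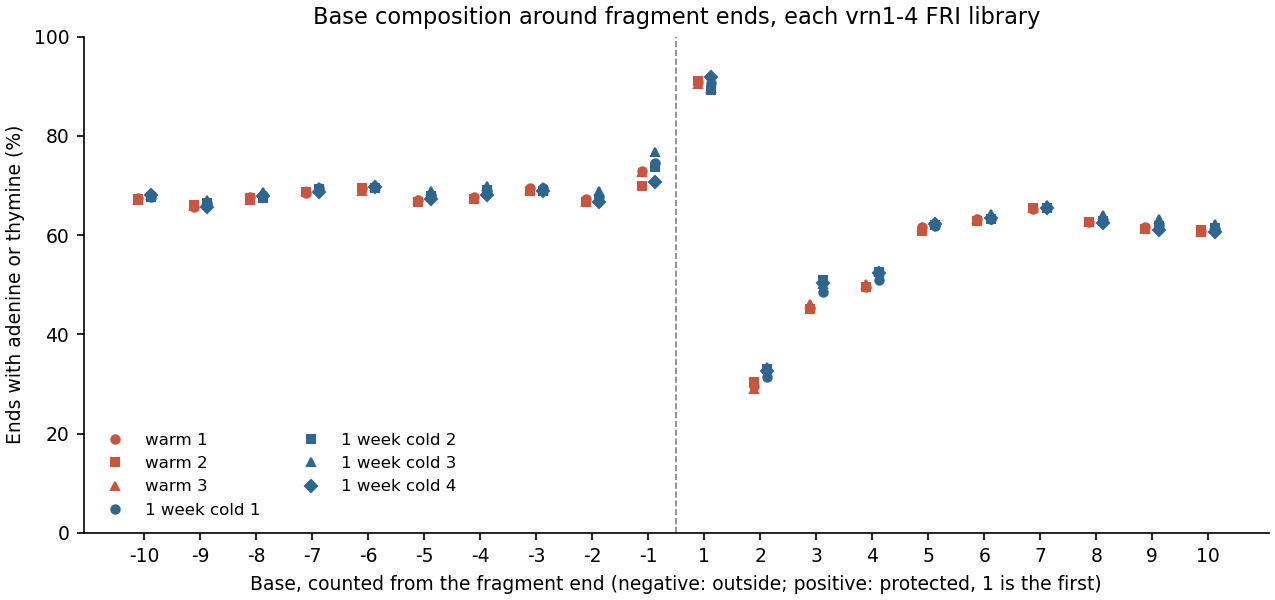
Share of fragment ends with A or T (%) at each base around the end, negative positions outside the fragment and positive positions inside it, one point per *vrn1-4* FRI library, warm in red and 1W cold in blue. At bases 2 and 3 the 4 cold libraries lie above the 3 warm ones, at 31.5% to 33.4% against 29.1% to 30.3% and at 48.6% to 50.9% against 45.1% to 46.1%, while the first base is A or T at 89.3% to 91.8% of ends in all 7.

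Fragments were slightly longer in the cold mean, and the warm and cold libraries overlapped. The mean length was 127.2, 124.5 and 127.6 bp in the warm and 128.3, 127.8, 129.6 and 126.4 bp in the cold. Warm replicate 2 had the shortest fragments and cold replicate 4 was below warm replicates 1 and 3 (difference 1.58 bp, exact permutation test, p = 0.257). The share of fragments under 120 bp was 34.6%, 40.9% and 33.3% in the warm and 32.1%, 32.5%, 29.7% and 36.6% in the cold (exact permutation test, p = 0.257). The share of fragments of 140 to 150 bp, close to a complete nucleosome core, was 30.8%, 23.4% and 31.0% in the warm and 33.4%, 31.7%, 37.8% and 29.0% in the cold (difference 4.55 points, exact permutation test, p = 0.2). With 1 library left out the difference ranged from 0.621 to 2.13 bp in mean length, from -5.04 to -1.26 points in the share under 120 bp and from 2.03 to 5.87 points in the share of 140 to 150 bp. The smallest difference of each came without warm replicate 2. Between libraries of the same number, mean length was higher in the cold in 3 of 3 pairs, by 1.02, 3.26 and 2.05 bp (exact permutation test over sign changes, p = 0.25, the smallest that 3 pairs can give).

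By single length, 0 of 51 lengths (0%) passed limma, 0 had an unadjusted p under 0.05, and the 7-library fit and the fit without cold replicate 4 also called 0. The replicate block changed this and called 31 lengths (60.8%), 10 more frequent and 21 less frequent in the cold, against 0 (0%) in the same 6 libraries without it. The groups did not overlap at 6 lengths (11.8%). The 3 with the smallest p among lengths more frequent in the cold were 144, 142 and 149 bp, with log2 changes of 0.24, 0.24 and 0.26, and among the others 126, 124 and 118 bp, with -0.18, -0.18 and -0.26 (limma adjusted p = 0.452 for each). At 144 bp the share was 3.32%, 2.62% and 3.36% in the warm and 3.62%, 3.64%, 3.97% and 3.37% in the cold, just without overlap. In WT FRI 44 of the 51 lengths passed (86.3%), and the 3 differences of mean length, short share and long share had the smallest p the design allows (4.21 bp, -9.23 points and 12.3 points, exact permutation test, p = 0.0286 for each). The differences between the genotypes in these changes were -2.64 bp, 5.66 points and -7.70 points and did not pass (permutation of genotype labels within each temperature, p = 0.303 to 0.347, adjusted p = 0.952).

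**Figure D5:**
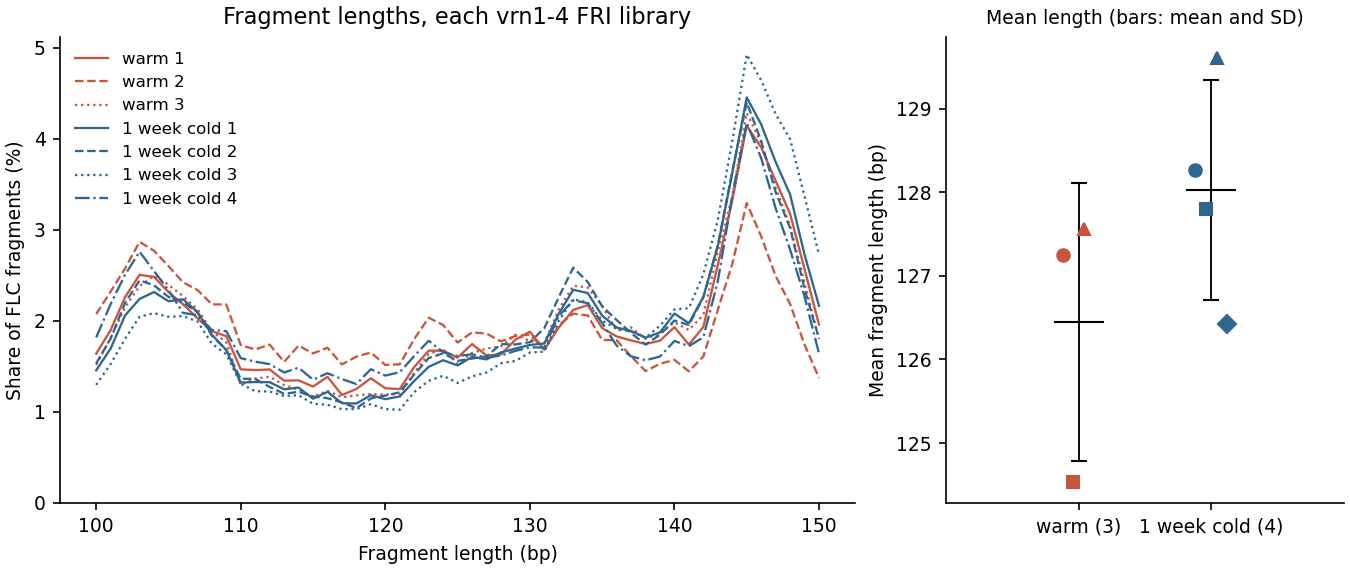
Left, share of *FLC* fragments (%) of each length from 100 to 150 bp, one line per *vrn1-4* FRI library, warm in red and 1W cold in blue. Right, mean fragment length (bp) of each library with the mean and SD of the group; the axis does not start at 0. The main mode near 145 bp is lowest in warm replicate 2 and highest in cold replicate 3, and the mean lengths of the groups overlap, at 124.5 to 127.6 bp and 126.4 to 129.6 bp.

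The difference in length had the same sign in most bins. Fragments were longer in the cold mean in all 10 parts of the locus, by 1.18 bp in the far upstream flank to 2.27 bp in the first part of intron 1 (exact permutation tests, p = 0.0857 to 0.371), and in 91 of 96 bins, with a median of 1.70 bp. Without cold replicate 4, 93 bins had longer fragments in the cold and 2 (2.08%) were called, 1 in each direction. The replicate block called 83 bins (86.5%), 82 of them longer in the cold, and the same 6 libraries without it 19 (19.8%), 18 of them longer. The bin at -733 to -634 upstream had the smallest p among bins with longer fragments, with 122.1, 123.8 and 123.9 bp in the warm and 128.9, 126.9, 130.2 and 125.3 bp in the cold (difference 4.56 bp, SE 1.47, limma adjusted p = 0.0969, and 0.0166 without cold replicate 4). The bin at +467 to +566, at the start of intron 1, had 130.5, 127.1 and 128.9 bp in the warm and 132.6 to 133.1 bp in the cold (difference 3.99 bp, SE 1.47, limma adjusted p = 0.219), and the bin at +4067 to +4166 a difference of 3.51 bp (limma adjusted p = 0.361). Of the bins with shorter fragments in the cold mean, those at +3467 and -1833 differed by -0.853 and -0.485 bp (limma adjusted p = 0.627 and 0.783).

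The 1 bin called at an adjusted p of 0.05 of 96 (1.04%) went against this direction. At -933 to -834 upstream, in DNA with 17% GC, fragments averaged 140.9, 144.1 and 135.5 bp in the warm and 136.8, 133.5, 129.6 and 135.7 bp in the cold (difference -6.25 bp, SE 1.47, limma adjusted p = 0.00227). The groups overlapped, and the bin rested on few fragments, 20 to 89 distinct ones per warm library and 38 to 385 per cold library, or 0.00729% to 0.0772% of *FLC* fragments. limma gave all 96 bins the same SE here, so the sparse bin was treated as being as precise as the rest. The call was lost without warm replicate 1, warm replicate 2 or cold replicate 3 (limma adjusted p = 0.0646, 0.427 and 0.178), and when each distinct fragment was counted once.

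Set against WT FRI, 1 of 96 bins changed differently in the cold (1.04%, limma adjusted p under 0.05 for the difference between the genotypes), and 5 (5.21%) had an unadjusted p under 0.05. At +367 to +466, in the first part of intron 1, *vrn1-4* FRI held 0.598%, 0.671% and 0.605% of midpoints in the warm and 0.630%, 0.572%, 0.637% and 0.534% in the cold. WT FRI went from 0.692%, 0.687% and 0.733% to 1.06%, 1.09%, 1.03% and 0.938%. The temperatures overlapped in the mutant and were clearly apart in WT FRI, and the difference of the log2 changes was -0.61 (SE 0.132, limma adjusted p = 0.0373). With 1 library left out it was called in 2 of 14 fits. The libraries left out in these were cold replicate 3 of the mutant and cold replicate 4 of WT FRI.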

How the data were processed

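The authors digested nuclei with MNase, captured target loci with baits, trimmed reads with fastp, aligned them to TAIR10 with Bowtie2, and sorted and split them with SAMtools 1.5. They deposited, for each distinct *FLC* fragment of 100 to 150 bp, its fraction of the library's *FLC* fragments. Read numbers are not given, so no counting error was computed and no counts were inferred. Whether PCR duplicates were removed is not stated in the sources used here.

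Fractions were summed by midpoint, length and end. Bins, peaks, lengths and ends were tested with limma 3.58.1 (R 4.3.3) over 14 libraries in 4 groups. The tests were on log2(share + 0.0001), with the share as a fraction, so that 0.01% was added. Centre, spread and mean length were tested in bp. P-values were adjusted by Benjamini-Hochberg within each family (threshold 0.05). Single values and gene parts were tested with a two-sided exact permutation test over all 35 splits of 3 against 4 libraries (smallest p = 0.0286). Differences between genotypes used 1400 arrangements of genotype labels. In each family the 3 features with the smallest p in each direction were named. Bins under 0.01% and ends under 0.05% mean share were left out. Midpoints, lengths and bases were tabulated with Python 3.11.15, numpy 2.4.6 and pandas 2.3.3. The tests were tested on simulated data. Sequences were read from the RefSeq TAIR10.1 genome, in which 237 of 237 *FLC* baits were found at the region. Members and features were chosen with earlier results of these data known. The bases at fragment ends, end classes and GC classes were added after seeing the data. Alternatives were other pseudocounts, filters, windows, lengths, a 7-library fit, the replicate block, counting each distinct fragment once, and leaving out each library.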

Additional observations from a re-analysis of the deposited data

Results flagged for a closer look

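Changes in the cold that differed between *vrn1-4* FRI and WT FRI, by limma's test of the difference itself, were found for 4 features. These were 1 of 96 bins (1.04%), 2 of 54 peak spreads (3.7%) and 1 of 96 bin mean lengths (1.04%). The same test called 0 of 54 peak shares, 0 of 54 peak centres, 0 of 51 lengths and 0 of 877 ends. The log2 share of the bin at +367 to +466 differed by -0.61 (adjusted p = 0.0373). The peak at 3178987 in intron 1 (+461) lies inside that bin, and its spread of midpoints differed by 5.42 bp (limma adjusted p = 0.0434). Its change was 2.26 bp in *vrn1-4* FRI and -3.15 bp in WT FRI, neither called. At the peak at 3181853 in the upstream flank the spread differed by 5.68 bp (limma adjusted p = 0.0339). The change there was 1.82 bp in *vrn1-4* FRI (limma adjusted p = 0.372) and -3.86 bp in WT FRI (limma adjusted p = 0.0238). The mean fragment length in the sparse bin at -933 to -834 differed by -9.13 bp (adjusted p = 0.00122). Of 66 single values, each examined for 1 of the 4 cold libraries lying far from the other 3, 0 held one. These values do not compare whole profiles, in which cold replicate 4 was the farthest from its group.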

How the results depend on the processing

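Same-numbered warm and cold libraries did not all deviate together (r = -0.23, 0.57 and 0.61 over 96 bins). With the deviations taken over replicates 1 to 3 alone, r was 0.41, 0.52 and 0.35 and each library correlated best with its own number, which is a hint from the data and not the design. A replicate block over replicates 1 to 3 called 30 bins, 14 peak shares, 17 peak centres, 4 peak spreads, 31 lengths, 83 bin mean lengths and 244 ends. The same 6 libraries with no block, chosen after seeing the data, called 17 bins, 0 peak shares, 3 peak centres, 4 peak spreads, 0 lengths, 19 bin mean lengths and 185 ends, so part of the gain came with leaving out cold replicate 4 and the WT FRI libraries. Exon 7 turned to -0.381 points with the block, as it did with only cold replicate 4 left out. With and without the block the -1 centre (at 3179583) was 0.295 bp and the mean length of the bin at 3181182 was 0.586 bp.

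The 7-library fit called 2 bin mean lengths and 53 ends, centring on the median 1 peak share (lower), a window of 30 bp 2 peak spreads, and a pseudocount of 0.001 1 end. That window turned the spread at 3178333 to 0.0781 bp and at 3173082 to 1.03 bp. Counting each distinct fragment once, which removes the weight of frequent fragments, left 0 bin mean lengths. It turned the bin at 3181182 to 0.351 bp, the middle of intron 1 to -0.433, exon 7 to -0.277 and the 3′ flank to 0.0976 points, and the genotype differences to 0.102 points of GC and 0.304 points in exon 1. It also reduced the change at exon 1 to -0.741 points, at the +3759 peak to -0.16 (log2) and at the +1 centre to -2.64 bp.

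Leaving out 1 library gave 0 to 9 bins (9 without cold replicate 4), 0 to 1 peak shares, 0 to 1 peak centres, 0 to 2 peak spreads, 0 to 2 bin mean lengths and 0 to 1 bins that differed between genotypes. Values that changed sign ranged from -0.19 to 0.24 for the -1 peak share (log2), -2.67 to 0.558 bp for its centre and -1.31 to 0.586 bp for the bin at 3181182. They ranged in points from -0.426 to 0.348 for the middle of intron 1, -0.381 to 0.298 for exon 7 and -0.616 to 0.340 for the 3′ flank. Genotype differences ranged from -0.393 to 0.0767 points of GC, -1.11 to 0.983 of A/T ends and -1.03 to 0.0478 in exon 1. The 4.51 and 3.00 points at bases 3 and 2 ranged from 4.21 to 4.97 and from 2.71 to 3.40 with 1 library left out. Counting error was not set beside any of these, since read numbers are not given and no counts were inferred. In the *vrn1-4* FRI libraries each fraction was, within rounding, a whole multiple of the library's smallest, which was 8.8e-07 to 2.69e-06.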
